A study of Homo sapiens with 3 samples.

Results

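The miR-192, miR-194 and miR-215 clusters were examined in 3 small RNA libraries. Their 5 members, hsa-miR-192-5p, hsa-miR-192-3p, hsa-miR-194-5p, hsa-miR-194-3p and hsa-miR-215-5p (written below without the species prefix), were taken by name from the 2588 mature miRNAs listed in the deposited tables, where they occupy 6 of 2813 loci because miR-194-5p is listed at 2. miR-215-3p, the remaining listed arm of these hairpins, was not among the members and is given beside them. The libraries came from untreated parental cells of C643, a thyroid carcinoma line, ES-2, an ovarian carcinoma line, and Huh-7, a hepatocellular carcinoma line, each with 1 library and no replicate. Cells were grown in medium with serum and harvested 48 h after seeding, and 50 ng of total RNA entered each library. The study profiled these lines to place miR-21-5p among all miRNAs before its gene was deleted.

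MicroRNAs are cut from hairpin precursors, with a 5p product from the leading arm and a 3p product from the trailing arm, and guide Argonaute proteins to messenger RNAs that pair with the seed near their 5′ end. miR-192, miR-194 and miR-215 are known as miRNAs of liver, gut and kidney epithelium, where transcription factors of the hepatocyte nuclear factor (HNF) groups maintain epithelial gene programmes. miR-192 and miR-215 are near-identical sisters with a shared seed, and these clusters have also been linked to p53. Each cluster pairs 1 of the sisters with a copy of miR-194.

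The mature sequences are shown because they set which members can share targets and which reads can be told apart. They were taken from RefSeq (GRCh38.p14), are written 5′ to 3′, and have the seed, bases 2 to 8, in capitals.
miR-192-5p: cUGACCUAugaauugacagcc
miR-215-5p: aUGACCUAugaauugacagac
miR-194-5p: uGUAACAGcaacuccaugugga
miR-192-3p: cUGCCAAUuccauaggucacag
miR-194-3p: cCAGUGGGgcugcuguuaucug
miR-215-3p: uCUGUCAUuucuuuaggccaaua
miR-192-5p and miR-215-5p carried the same seed, which no other mature human miRNA of the RefSeq table had, and the seeds of the other 4 arms were each found once. Over their 21 bases miR-192-5p and miR-215-5p differed by C1A and C20A, with positions counted from the 5′ end and the base of miR-192-5p given first. The 18 bases between these positions are identical, so a read that lacks both ends fits either miRNA.

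The first cluster lies on chromosome 11 on the minus strand (GRCh38, GENCODE 29). MIR194-2, at 64891355 to 64891439, is followed by MIR192, at 64891137 to 64891246, with 108 bases between the hairpins, and each hairpin lies inside an exon of the long intergenic non-coding RNA gene MIR194-2HG (64889560 to 64893449). The second cluster lies on chromosome 1, also on the minus strand. MIR194-1, at 220118157 to 220118241, and MIR215, at 220117853 to 220117962, are adjacent in the same way and overlap an intron of IARS2, the gene of the mitochondrial isoleucyl-tRNA synthetase, which is transcribed from the opposite strand. The deposited tables name the same chromosome for every listed arm.

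The depth of C643 was 8183100 miRNA reads, that of Huh-7 2173587 and that of ES-2 1663181. A count of 0 is compatible with a share as high as 0.000138% in Huh-7, 0.00018% in ES-2 and 3.67e-05% for C643, the limit set by 3 reads. Shares are percentages of the reads of the same library, and their Wilson 95% confidence intervals cover counting error only. ES-2 and Huh-7 share a table while C643 has its own, which may have been normalised separately, so comparisons with C643 were made by share, deposited-scale values for C643 are set across tables, and no comparison has a replicate check.

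The clusters were abundant in Huh-7 and low in C643 and ES-2. The 5 members together took 1.81% of the Huh-7 reads (95% CI 1.80 to 1.83, 39405 reads), against 0.0150% of the C643 reads (0.0141 to 0.0158, 1224 reads) and 0.0137% of the ES-2 reads (0.0120 to 0.0156, 228 reads). By share, the sum was 132-fold higher in Huh-7 than in ES-2 (95% CI 116 to 151) and 121-fold higher than in C643 (115 to 128). C643 stood at 1.09 times the share of ES-2 (0.947 to 1.26), an interval that includes 1. On the deposited scale these folds were 70.1, 77.3 and 0.907, so the order of C643 and ES-2 turned with the scale.

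miR-192-5p, the leading member in Huh-7, was counted 19125 times in Huh-7, 560 times in C643 and 109 times in ES-2. These counts were 0.880% of the Huh-7 library (95% CI 0.868 to 0.892), 0.00684% of the C643 library (0.0063 to 0.00743) and 0.00655% of the ES-2 library (0.00543 to 0.0079). It ranked 19 of the 858 miRNAs with a read in Huh-7, 171 of 649 in C643 and 161 of 608 in ES-2. Its share in Huh-7 was 134-fold that in ES-2 (111 to 162) and 129-fold that in C643 (118 to 140). C643 and ES-2 were not told apart, at a ratio of 1.04 (0.850 to 1.28), which was 0.868 on the deposited scale.

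miR-194-5p, the product of both MIR194 hairpins, was counted 18351 times in Huh-7, 654 times in C643 and 105 times in ES-2. Its share was 0.844% for Huh-7 (95% CI 0.832 to 0.857), where it ranked 20, directly after miR-192-5p. The shares were 0.00799% for C643 (0.0074 to 0.00863) and 0.00631% for ES-2 (0.00522 to 0.00764). The share in Huh-7 was 134-fold that in ES-2 (110 to 162) and 106-fold that in C643 (97.7 to 114). The share in C643 exceeded that in ES-2 1.27-fold (1.03 to 1.56), which on the deposited scale became 1.05-fold.

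miR-215-5p, the sister of miR-192-5p, was read in Huh-7 only, with 1349 reads there and 0 in both other libraries. Its share in Huh-7 was 0.0621% (95% CI 0.0588 to 0.0655), and it ranked 93. Set against the limit of 3 reads per library, it was at least 1693-fold higher in Huh-7 than in C643 and at least 344-fold higher than in ES-2. miR-215-3p, its other arm, likewise had 74 reads in Huh-7 and 0 elsewhere. In Huh-7 the 5p arm thus exceeded the 3p arm 18.2-fold (14.4 to 23.0).

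In Huh-7 the 3p arms of the chromosome 11 cluster were the scarcest members. miR-194-3p was counted 569 times in Huh-7, 14 times in ES-2 and 10 times in C643, or at 262, 8.42 and 1.22 reads per 1000000 miRNA reads (RPM). miR-192-3p had 11 reads in Huh-7, or 0.000506% (95% CI 0.000283 to 0.000906), and 0 in C643 and ES-2. Its share was at least 13.8-fold higher in Huh-7 than in C643 and at least 2.81-fold higher than in ES-2.

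**Figure D1:**
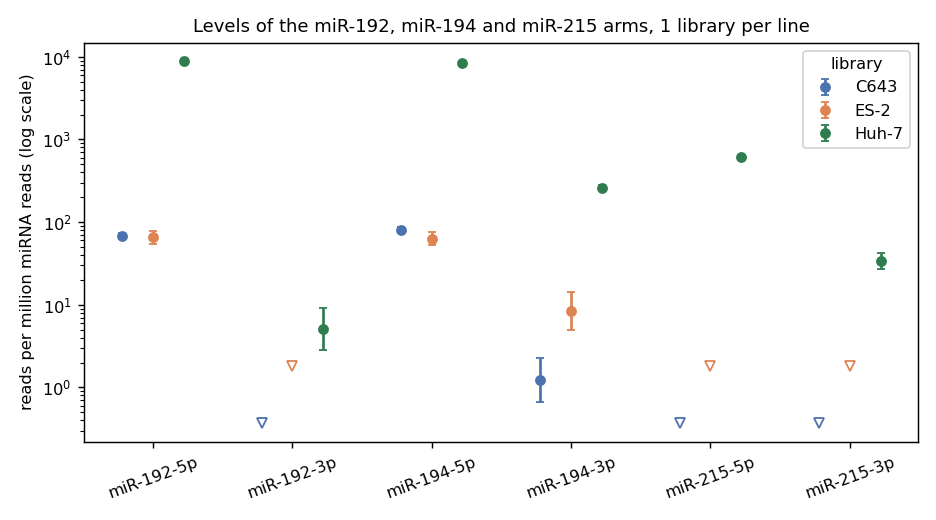
Reads per 1000000 miRNA reads (RPM, log axis) of the 5 members and miR-215-3p in C643, ES-2 and Huh-7, 1 library each. Points are values with Wilson 95% intervals, and open triangles mark the limit of 3 reads where there was no read. Huh-7 lies above the other libraries for each arm, and miR-215-5p was read in Huh-7 only.

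To set these differences against all miRNAs, log2(RPM + 1) was compared between libraries over miRNAs at 10 RPM or more in either, and a difference of 2 counted as 4-fold. In the comparison of Huh-7 with ES-2, 41.4% of the 437 miRNAs were higher in Huh-7 by this limit, as were the 4 members that passed the filter. In that of Huh-7 with C643 the background was 35.5% of 442 miRNAs, and the same 4 members were past the limit. On the deposited scale the backgrounds were 27.7% and 25.1%, again with 4 members past the limit in each. miR-194-3p and miR-215-5p passed the filter only through Huh-7, so nothing was read from these counts. miR-192-3p did not pass in any comparison.

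The sizes of the differences were then ranked over all miRNAs. By difference in favour of Huh-7 over ES-2 on the log2(RPM + 1) scale, miR-192-5p was at 7.05, rank 20, and miR-194-5p at 7.04, rank 21, against a median of 1.65 over all 437. miR-194-3p stood lower, at 4.80, but passed the filter only through Huh-7, so it is given no rank. Against C643, miR-192-5p was at 6.99, rank 18 of 442, and miR-194-5p at 6.71, rank 22, with a median of 1.04 over all miRNAs. miR-194-3p, again without a rank, was at 6.89. With 1.22 RPM in C643 this value depends on the added 1, and its log2 share ratio was 7.74. No rank is given for miR-215-5p, whose difference from a library with 0 reads is fixed by its Huh-7 level and the added 1.

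Scaling moved the size of the differences between Huh-7 and the other libraries and left their direction as it was. Column sums on the deposited scale differed between libraries, and on that scale miR-192-5p was 71.2-fold and miR-194-5p 70.9-fold higher in Huh-7 than in ES-2. By share, the miRNAs read in both libraries had a median log2 ratio of 1.39 for Huh-7 over ES-2 (345 miRNAs) and of 0.75 for Huh-7 over C643 (360 miRNAs). Relative to these medians, the log2 ratio of miR-192-5p was 5.68 against ES-2 and 6.26 against C643, and that of miR-194-5p was 5.67 and 5.98.

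**Figure D2:**
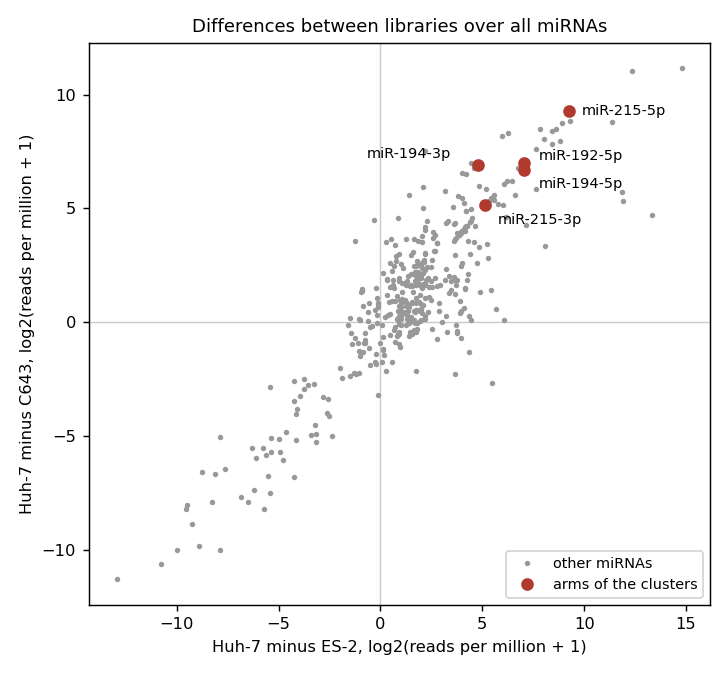
Difference of log2(RPM + 1), Huh-7 minus ES-2 (horizontal) and Huh-7 minus C643 (vertical), for the 418 miRNAs that passed the filter in both comparisons. Each grey point is a miRNA and red points are arms of the clusters. Both axes use the Huh-7 library, so points near the diagonal are not evidence of agreement, and miR-192-5p lies next to miR-194-5p. The point of miR-215-5p, with 0 reads in ES-2 and C643, is set by its Huh-7 level.

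C643 and ES-2 were compared because both had low levels of the clusters. By the 4-fold limit, 19.5% of the 348 miRNAs that passed the filter were higher in C643 and 9.48% were higher in ES-2, and neither of the 2 members that passed, miR-192-5p and miR-194-5p, was among them. In an exact binomial test on reads, adjusted by Benjamini-Hochberg, which tests the 2 libraries rather than their lines, miR-194-5p was called higher in C643 (adjusted p = 0.0298) and miR-192-5p was not called (adjusted p = 0.733). This test called 52.9% of the 348 miRNAs higher in C643. The median log2 share ratio over the 315 miRNAs read in both libraries was 0.31 in favour of C643, and that of miR-194-5p was 0.34. miR-194-3p, which did not pass the filter, had in C643 0.145 times its share in ES-2 (95% CI 0.0645 to 0.327), the largest departure among the members.

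miR-192-5p and miR-194-5p, the latter summed over its loci, were read in similar number in each library. The reads of miR-192-5p were 1.04 times those of miR-194-5p in Huh-7 (95% CI 1.02 to 1.06) and likewise 1.04 times in ES-2 (0.794 to 1.36), but 0.856 times in C643 (0.765 to 0.959). The ratio in C643 was therefore lower than in Huh-7 beyond counting error, while ES-2 was not told apart from either. Of the members' reads, both miRNAs together made up 95.1% for Huh-7, 93.9% for ES-2 and 99.2% for C643. When only the reads at the chromosome 11 locus of miR-194-5p were counted, the ratio was 1.26 for Huh-7 (1.23 to 1.28), 1.11 for ES-2 (0.847 to 1.46) and 1.06 for C643 (0.943 to 1.20).

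The sister seed was shared differently between the lines. In Huh-7, miR-192-5p exceeded miR-215-5p 14.2-fold (95% CI 13.4 to 15.0), and together they gave 52.0% of the members' reads, miR-215-5p alone 3.42%. In C643 the whole of this seed, 45.8% of the members' reads, came from miR-192-5p, and in ES-2 47.8%. At the Huh-7 ratio, the miR-192-5p reads would go with 39.5 reads of miR-215-5p in C643 and 7.69 in ES-2, and none was counted in either.

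The arms of MIR194 were compared next, and ES-2 had the lowest ratio of 5p to 3p reads. miR-194-5p exceeded miR-194-3p 32.3-fold in Huh-7 (95% CI 29.7 to 35.1), 65.4-fold in C643 (35.0 to 122.1) but only 7.5-fold in ES-2 (4.29 to 13.1). The interval of ES-2 lies apart from those of the other lines, and its 3p value rests on 14 reads. The ratio was 4.30 times higher in Huh-7 than in ES-2 (2.45 to 7.56). Of 57 hairpins with 10 or more reads on each arm in both libraries, 2, MIR194 included, had a change in arm ratio of at least this size, and the median change was 0.51 on the log2 scale. The ratio in Huh-7 was 0.493 times that in C643 (0.263 to 0.926), and 44 of 82 hairpins changed at least as much between these libraries. Since the 3p arm is listed at chromosome 11 alone, the ratio was also taken from the chromosome 11 reads of the 5p arm, which gave 26.7 in Huh-7, 52.7 in C643 and 7.0 in ES-2.

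MIR192 was more one-sided. In Huh-7, 99.9% of its reads were of the 5p arm (95% CI 99.90 to 99.97), a ratio of 1739 (963 to 3140), and 42 of 181 hairpins with 50 or more reads were more one-sided. The 3p arm was not read in C643 or ES-2, where the ratio was at least 187 and at least 36.3. At the Huh-7 ratio, 0.322 reads of miR-192-3p would accompany the 5p reads in C643 and 0.0627 in ES-2, so a difference in this arm was not detectable at this depth. By the same measure MIR215, with 94.8% of reads on the 5p arm in Huh-7, and MIR194, with 96.99%, lay near the median of 96.9% for the larger arm of these hairpins.

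**Figure D3:**
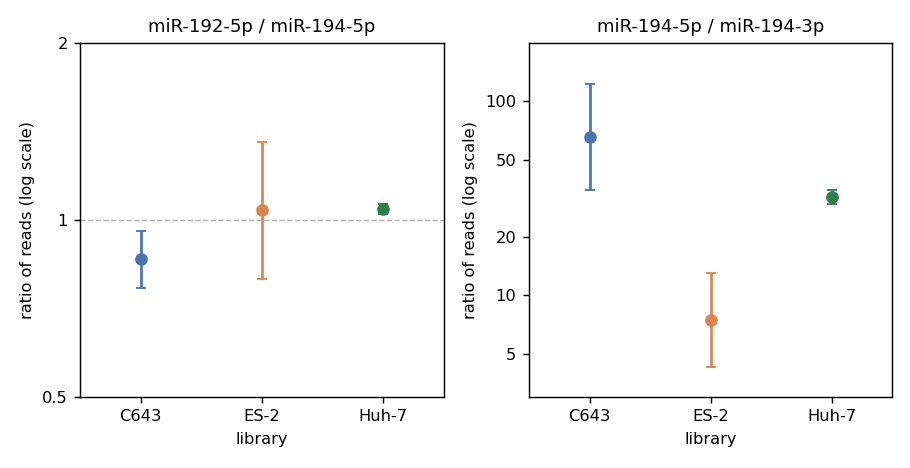
Ratio of reads of miR-192-5p to miR-194-5p (left) and of miR-194-5p to miR-194-3p (right) in each library, on log axes, with 95% counting intervals. The left ratio lies between 0.856 and 1.04, and the right ratio is lowest in ES-2, at 7.5.

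The reads of miR-194-5p were divided unevenly between its loci. The mature sequence is identical in both hairpins, so only bases beyond its ends can assign a read to a locus. The sequences below, with the mature miRNA in capitals and 3 bases of hairpin on each side, differ at all 6 flanking positions.
MIR194-2: cccUGUAACAGCAACUCCAUGUGGAagu
MIR194-1: aagUGUAACAGCAACUCCAUGUGGAcug
The chromosome 11 locus received 15218 reads from Huh-7, 527 from C643 and 98 from ES-2. The chromosome 1 locus received 3133, 127 and 7. Chromosome 1 thus took 17.1% of the miR-194-5p reads of Huh-7 (95% CI 16.5 to 17.6), 19.4% of those of C643 (16.6 to 22.6) and 6.67% of those of ES-2 (3.27 to 13.1). C643 and Huh-7 overlapped, and ES-2 lay below both.

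Most miRNAs with 2 loci were split near evenly, and miR-194-5p was not. The other miRNAs with 2 loci and 50 or more reads numbered 26 for Huh-7, 31 for C643 and 23 for ES-2, and the median share of their larger locus was 51.6%, 51.6% and 51.0%. Above 60% were 2 of them for Huh-7 and 1 each for C643 and ES-2. For miR-194-5p the larger locus, chromosome 11 in each library, took 80.6% of the reads of C643, 93.3% of ES-2 and 82.9% of Huh-7, the highest such share among the 2-locus miRNAs of C643 and ES-2 and rank 2 in Huh-7. The exceptions nearest to it, named after their values had been seen, were miR-138-5p with 77.7% in C643 and 65.2% in ES-2, and miR-548x-3p with 97.7% in Huh-7. How the submitters placed reads that match several loci was not given in the sources used here, and its part in the split was not tested.

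**Figure D4:**
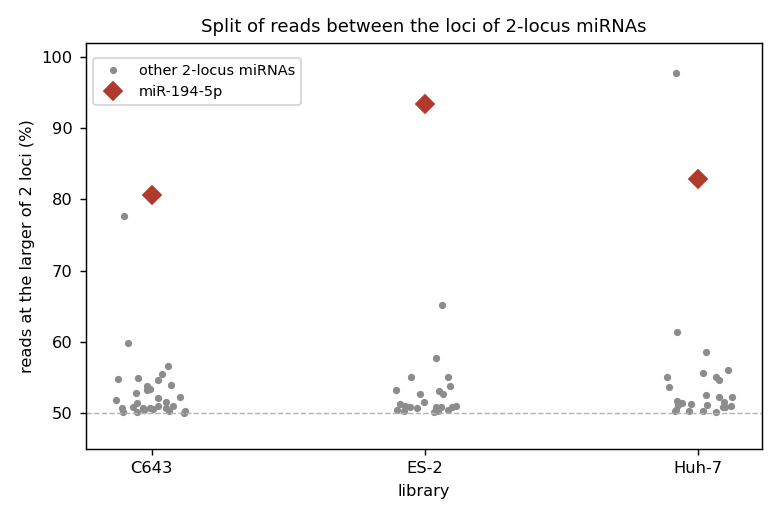
Percentage of reads at the larger of 2 loci for each miRNA with 2 loci and 50 or more reads, by library. The dashed line marks an even split at 50%. miR-194-5p (diamond) lies at 80.6%, 93.3% and 82.9%, while the other miRNAs (grey) have medians of 51.0% to 51.6%.

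Huh-7 and C643 had different ratios of miR-215-5p reads to the miR-194-5p reads placed at the neighbouring chromosome 1 locus. In Huh-7 there were 0.431 reads of miR-215-5p for each miR-194-5p read placed at chromosome 1 (95% CI 0.404 to 0.459). In C643, 127 reads were placed there with no read of miR-215-5p, a ratio of at most 0.0236, where the Huh-7 ratio would give 54.7 reads. In ES-2 the 7 reads at chromosome 1 allowed no comparison, since the ratio could be up to 0.429. The mature sequence of miR-194-5p is identical at both loci, and the part of read placement in these ratios was not tested. Counted by locus, chromosome 11 took 88.5% of all reads of these hairpins for Huh-7, 89.6% for C643 and 96.9% for ES-2.

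Huh-7 was checked against liver-linked miRNAs, since the clusters are known from liver. Of 6 listed, 5 passed the filter and were at least 4-fold higher in Huh-7 than in ES-2 and than in C643, with medians of 11.88 and 8.75 on the log2(RPM + 1) scale, beside the backgrounds of 41.4% and 35.5%. Against ES-2 each of the 5 passed through Huh-7 alone, and against C643 so did miR-122-3p, miR-885-5p and miR-885-3p, so these counts are a description. The list summed to 16.8% of the Huh-7 reads, 0.0603% of the C643 reads and 0.00102% of the ES-2 reads. miR-122-5p, the dominant hepatocyte miRNA, gave 13.3% in Huh-7 with 288469 reads. miR-802, also on the list, did not pass the filter and had 0 reads in Huh-7, C643 and ES-2. The label of Huh-7 as a liver line thus had its defining marker, and no thyroid or ovary marker was fixed for the other lines.

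miR-122-5p and miR-192-5p had different ratios in each line. There were 15.1 reads of miR-122-5p for each read of miR-192-5p in Huh-7 (95% CI 14.9 to 15.3), 0.836 in C643 (0.739 to 0.945) and 0.055 in ES-2 (0.0242 to 0.125). miR-122-5p itself was counted 468 times in C643 and 6 times in ES-2. Reads of Huh-7 composition in that number would bring 31.0 reads of miR-192-5p into C643, where 560 were counted, and 0.398 into ES-2, where 109 were counted. They would bring 2.19 reads of miR-215-5p into C643, where none was counted. This arithmetic takes every miR-122-5p read of C643 and ES-2 as 1 of Huh-7 composition, and the origin of these reads was not tested.

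Most of the epithelial list, and 1 of the p53-linked arms, also stood higher in Huh-7. Of 6 epithelial miRNAs, 5 passed the filter and were at least 4-fold higher in Huh-7 than in both other lines, with medians of 7.81 against ES-2 and 8.04 against C643. Of these, miR-200b-3p, of the family that restrains the ZEB repressors, stood at 3017 RPM in Huh-7, 12.5 in C643 and 7.82 in ES-2. In Huh-7, miR-429 stood at 359 RPM, miR-375 at 351 and miR-200a-3p at 262. miR-200c-3p, encoded apart from the latter, was closest between these lines, with 181 RPM in Huh-7 and 39.7 in ES-2. Its log2(RPM + 1) difference from ES-2, 2.16, was just past the limit of 2. This list was counted by share only, so whether that call holds on the deposited scale was not tested. miR-141-3p did not pass the filter, at 1.84 RPM in Huh-7 and 4.21 in ES-2. Of the 5 p53-linked arms only miR-34a-5p passed, with 619 reads from Huh-7, 6 from ES-2 and 0 from C643. Of the arms that did not pass, miR-34b-3p had 3 reads from ES-2 and 0 from Huh-7. These lists were chosen with earlier results of these data known, their counts stand beside the backgrounds of 41.4% and 35.5% given above, and an entry that passed the filter through Huh-7 alone had to differ.

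Few markers of other cell types passed the filter. Of the 4 blood cell miRNAs 1 passed the filter, miR-142-3p, and it passed through ES-2 alone. It had 542 reads in ES-2, or 326 RPM, and 0 in Huh-7 and C643. The list summed to 0.0326% of reads in ES-2, 4.6e-05% in Huh-7 and 0% in C643. The origin of the ES-2 reads was not tested. Of the 3 muscle miRNAs 1 passed, miR-1-3p, with 23 reads from Huh-7, 10 from C643 and 3 from ES-2. It passed through Huh-7 alone, at 10.6 RPM against the filter of 10, with 1.80 RPM for ES-2 and 1.22 RPM for C643. On the log2(RPM + 1) scale it was past the 4-fold limit in favour of Huh-7, by 2.05 over ES-2 and 2.38 over C643. Beside the backgrounds of 41.4% and 35.5%, nothing was read from these calls. The muscle list was counted by share only, so whether they hold on the deposited scale was not tested.

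The miRNAs nearest in pattern were sought among the 183 at 100 RPM or more in Huh-7, by the distance between their log2 share ratios, Huh-7 over ES-2 and Huh-7 over C643, and those of the summed members. With 3 libraries this is a description of these libraries only. miR-192-5p at 0.088 and miR-194-5p at 0.199 were nearest to the sum they dominate. The next were miR-335-5p at 0.410, miR-126-3p at 1.24, miR-486-5p at 1.31, miR-486-3p at 1.72 and miR-200b-3p at 1.84. miR-335-5p was counted 770 times in Huh-7, 31 times in C643 and 5 times in ES-2. miR-215-5p came 27th by this measure, at 4.05, with its zeros set to 3 reads. miR-486-3p also had 0 reads in C643 and ES-2, so its place follows from its Huh-7 level and that limit.

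Since each chromosome 11 member was highest in Huh-7, the promoter of their host gene was searched for liver factor motifs. The RefSeq window of MIR194-2HG (GRCh38.p14) runs from 250 bases before to 50 bases after the start, at chr11:64893400-64893699 on the minus strand. The HNF1 motif GTTAAT, searched on both strands, was found on the reverse strand of the gene, beginning 60 bases before the start, and 6.88% of 35116 promoter windows hold it. It is shown in capitals in 22 bases at chr11:64893496-64893517.
MIR194-2HG: ggataatcATTAACcaccacca
The full HNF1 motif GTTAATNATTAAC, searched after this match had been seen, was met there with 1 mismatch, T2A, counted from its first base. At most 1 mismatch was found in 0.145% of all 35116 windows, 51 in number. GTTAAT alone was held by 2417 windows, and this window was already known to be 1 of them. The 0.145% is therefore too low a background for the longer match. The longer match contains the GTTAAT match, so they are not separate. The HNF4 motif CAAAGTCCA, in 0.384% of windows, and the FOXA motif TGTTTAC, in 3.42%, were not found in this one. A match is only a match of letters, and small RNA reads hold no measure of factor binding.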

How the data were processed

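Each line had 1 small RNA library, prepared with a NEXTflex kit. The values that the authors deposited are a signal named CPM, the reads of a locus multiplied by a factor of the library, in 1 table for C643 and 1 for ES-2 and Huh-7. The submitters' processing notes list cutadapt 1.14, Bowtie2 2.3.3, SAMtools 1.5, featureCounts 1.5.3, edgeR 3.18.1 and hg38, without roles. The columns summed to 959302 (C643), 1154552 (ES-2) and 612015 (Huh-7), so shares of each column were used. Each value was a whole multiple of the smallest in its column (100% within 0.001 reads), which gave whole reads, 1 read being 0.117, 0.694 and 0.282 units. Loci of a mature miRNA were summed.

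Python 3.11.15, NumPy 2.4.6, pandas 2.3.3 and SciPy 1.17.1 were used. Ratios have log-scale 95% intervals from read counts, and a library at or under 3 reads was set to 3. If reads are PCR copies, intervals are too narrow. The members and lists were chosen with earlier results of these data known. Named miRNAs were the members, miR-215-3p, miR-21-5p, list members at 10 RPM or more and the 5 nearest in pattern. miR-138-5p, miR-548x-3p, miR-6750-3p, miR-141-3p, miR-34b-3p and miR-802 fell outside this rule and were named after their values were seen. The lists were liver (miR-122, miR-885, miR-802, miR-148a-3p), epithelial, p53-linked, blood cell and muscle miRNAs. As an alternative, the reads of a pair of libraries were put to an exact binomial test (2-sided), adjusted by Benjamini-Hochberg over all miRNAs tested. It called 305 of 437 miRNAs higher in Huh-7 and 100 higher in ES-2. On simulated reads of this pair, with 369 miRNAs, it recovered 100% of 200 miRNAs changed 4-fold and called 1.78% of 169 unchanged ones. The simulated reads held counting error only (Poisson), so these rates do not cover variation between libraries of the same line. Names and sequences of all 5 members matched the RefSeq table.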

Additional observations from a re-analysis of the deposited data

How the results depend on the processing

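No paired analysis was possible because there was no replicate of any line. Without miR-21-5p in the denominator, the 5 members had shares of 2.72% (Huh-7), 0.0191% (ES-2) and 0.0210% (C643), and 1 locus per mature miRNA gave 0.0132% in C643 and 1.53% in Huh-7. A denominator of 1000000 gave 1.11% for Huh-7, 0.0158% for ES-2 and 0.0143% for C643, so ES-2 then exceeded C643. The ratio of miR-192-5p to miR-194-5p rose to 2.08 (Huh-7), 2.10 (ES-2) and 1.71 (C643) with the mean over the loci of miR-194-5p, as its construction requires, and the arm ratio of MIR194 in Huh-7 was 26.7 at chromosome 11 alone. Between C643 and ES-2, 1 member was at least 4-fold higher in ES-2 without a filter, miR-194-3p, on 10 reads in C643 and 14 in ES-2. Of all 2588 miRNAs, 2.94% were past that limit. By the binomial test 1 member was called higher in C643, miR-194-5p, beside 52.9% of 348 miRNAs. Of the values recomputed, 62 stayed within counting error or 1.5 times of a count and 13 moved, given here. The order of C643 and ES-2 by the summed members and by miR-192-5p turned on the deposited scale. The count of members higher in Huh-7 than in ES-2 or C643 was 4 under each scale, pseudocount and fold tried, and 5 without a filter. The share of all miRNAs called ran from 10.3% (C643, no filter) to 60.6% (ES-2, 2-fold limit) over these settings. As miR-194-3p and miR-215-5p passed the filter only through Huh-7, nothing was read from these counts. Depth limited miR-192-3p and miR-215-5p most in ES-2.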

Other observations

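Of the neighbouring hairpins on chromosome 11, MIR6750 (64898363 to 64898437) and MIR6749 (64902387 to 64902455) lie in introns of ATG2A, upstream of MIR194-2HG. miR-6750-3p had 11 reads from Huh-7, 2 from ES-2 and 0 from C643, and the other 3 arms had none in any library.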
